A study of Mus musculus with 8 samples.

Results

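The genes described here are 10 senescence-linked genes, 7 cyclin-dependent kinase inhibitors (Cdkn1a, Cdkn1b, Cdkn1c, Cdkn2a, Cdkn2b, Cdkn2c and Cdkn2d) together with Trp53, which encodes p53, and its partners Mdm2 and Mdm4. They were picked by name for their known roles, with earlier results of these data known. All 10 were found by symbol among the 22430 genes of a table of raw read counts in the mouse brain. All 10 passed the filter on low counts, which left 16730 genes for testing. The libraries came from male mice of the C57Bl/6JRj strain, per the methods of the study, with no transgene and no treatment: 4 animals of 6 months (6m) and 4 of 24 months (24m). The tissue is named as whole brain in one label and as a brain hemisphere in another, so every value averages over the cell types of the brain. The question addressed was whether the transcripts of these genes differ between young adult and aged brain.

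Cyclin-dependent kinases (CDKs) drive the cell cycle when bound to cyclins, and they do so largely by phosphorylating the retinoblastoma (RB) proteins, which then release E2F transcription factors. The INK4 inhibitors (p16, p15, p18 and p19, from Cdkn2a, Cdkn2b, Cdkn2c and Cdkn2d) bind CDK4 and CDK6, and the CIP/KIP inhibitors (p21, p27 and p57, from Cdkn1a, Cdkn1b and Cdkn1c) bind a wider range of cyclin and CDK complexes. The transcription factor p53 responds to DNA damage and other stress and activates Cdkn1a and Mdm2 among many genes. MDM2 marks p53 for degradation, and MDM4, a related protein, restrains its activity. In senescence, a lasting exit from the cell cycle, p16 and p21 are the inhibitors most often used as markers, while most neurons of the adult brain have left the cell cycle during development and still make several of these inhibitors.

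Library totals ran from 63460940 to 103462414 counts, the deepest being 24m replicate 1. That library also lay apart from the other 24m libraries on the first principal component of the 500 most variable genes, with a score of 9.09 against 29.1 to 37.6 for the other 3 and -33.6 to -19.8 for 6m. It stayed in every result, and where leaving it out changed a call of the 10 genes or took an adjusted p across 0.05 the value without it is given beside the result. The share of counts on mitochondrial genes was 5.26% to 6.52% in 6m and 3.18% to 3.69% in 24m, and the scaling factors were 0.887 to 0.957 in 6m and 1.002 to 1.13 in 24m, so both were apart between the ages. The part of the mitochondrial share in the results was not tested, and results without the scaling factors are given as those with library totals alone. The 8 neuron markers summed to 3599 to 4005 counts per 1e+06 (CPM, scaled to library size) in 6m and 4065 to 4226 CPM in 24m, and no marker of any cell type list was at 0 in all libraries.

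Cdkn2a is 2 products in 1 row of the table. The gene lies at chr4:89192708-89212890 (GRCm39, minus strand, ENSMUSG00000044303), and its transcripts Cdkn2a-201, for p16INK4a, and Cdkn2a-202, for p19ARF, start 12461 bases apart from separate first exons. Both join the same second exon (chr4:89194882-89195222). The 60 bases across each junction are shown because they are where the transcripts part: lower case marks the last 30 bases of the first exon (chr4:89200223-89200429 for p16INK4a, chr4:89212571-89212890 for p19ARF) and capitals mark the shared start of the second.
Cdkn2a-201: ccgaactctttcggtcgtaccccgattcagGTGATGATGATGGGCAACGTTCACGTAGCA
Cdkn2a-202: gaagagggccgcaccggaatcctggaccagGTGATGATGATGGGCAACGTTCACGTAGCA
The first exon of Cdkn2a-201 holds 126 coding bases, a whole number of codons, and that of Cdkn2a-202 holds 190, with 1 base left over, so the capitals are read in different frames. Of the 1172 exonic bases of the gene, 575 (49.06%) belong to both transcripts. A count for Cdkn2a is therefore a sum over p16INK4a and p19ARF, and the table cannot tell them apart.

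Cdkn1a (chr17:29309936-29319701 on GRCm39, plus strand, ENSMUSG00000023067) is the textbook target of p53. A stretch of 100 bases that ends just past one of its start sites is shown because it holds the core letters of a p53 response element, CATGNNNNNNCATG, in capitals. It is taken from the RefSeq promoter windows, which are on the older build GRCm38.p6, at chr17:29090888-29090987 on the plus strand.
Cdkn1a: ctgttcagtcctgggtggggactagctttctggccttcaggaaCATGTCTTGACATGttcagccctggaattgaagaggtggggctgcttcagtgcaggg
The match begins 48 bases before this start site. The window of the other Cdkn1a start site, 2790 bases downstream, holds no match. Both strands were searched, and the letters were chosen after the windows had been seen. They occur in 234 of 32851 windows of 300 bases (0.712%), and in 1 of the 13 windows that 9 of the genes have; Cdkn1c has none in the table used. A match of letters is a description of the sequence and not a measured binding site.

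Of the 10 genes, 3 were higher in 24m brain and none was lower by the rule used, which asks for an adjusted p no greater than 0.05 together with a log2 fold change (24m over 6m) of 0.58 or more in size. Cdkn1b, Cdkn2a and Mdm4 rose, by 1.84-fold, 1.68-fold and 1.69-fold. Over all tested genes 25.3% were called higher, 18.3% lower and 43.6% in either direction, so 3 of 10 is a share near that of the table. With adjusted p alone 6 of the 10 passed, beside 62.6% of all tested genes, the further 3 being Cdkn1c, Cdkn2c and Cdkn2d, each at a lower level in 24m. The 2 ages did not overlap for 5 of the 10 genes, beside 55.2% of all tested genes, and 2 of these 5 were called. The median log2 fold change of the 10 was -0.11, against -0.0034 for all tested genes. It ran from -0.17 without 6m replicate 3 to -0.028 without 24m replicate 3. Its sign depended on the processing, with 0.11 on library totals alone (all genes 0.21) and 0.087 with the trend over exonic length removed (all genes -0.032). With the trend over canonical transcript length removed it was 0.11 (all genes -0.012). Adjusted p-values are from the quasi-likelihood test of edgeR, with Benjamini-Hochberg adjustment over all tested genes, and errors of fold changes are standard errors. In whole brain, fewer cells of a type and less RNA per cell cannot be told apart, and this holds for each value below.

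**Figure D1:**
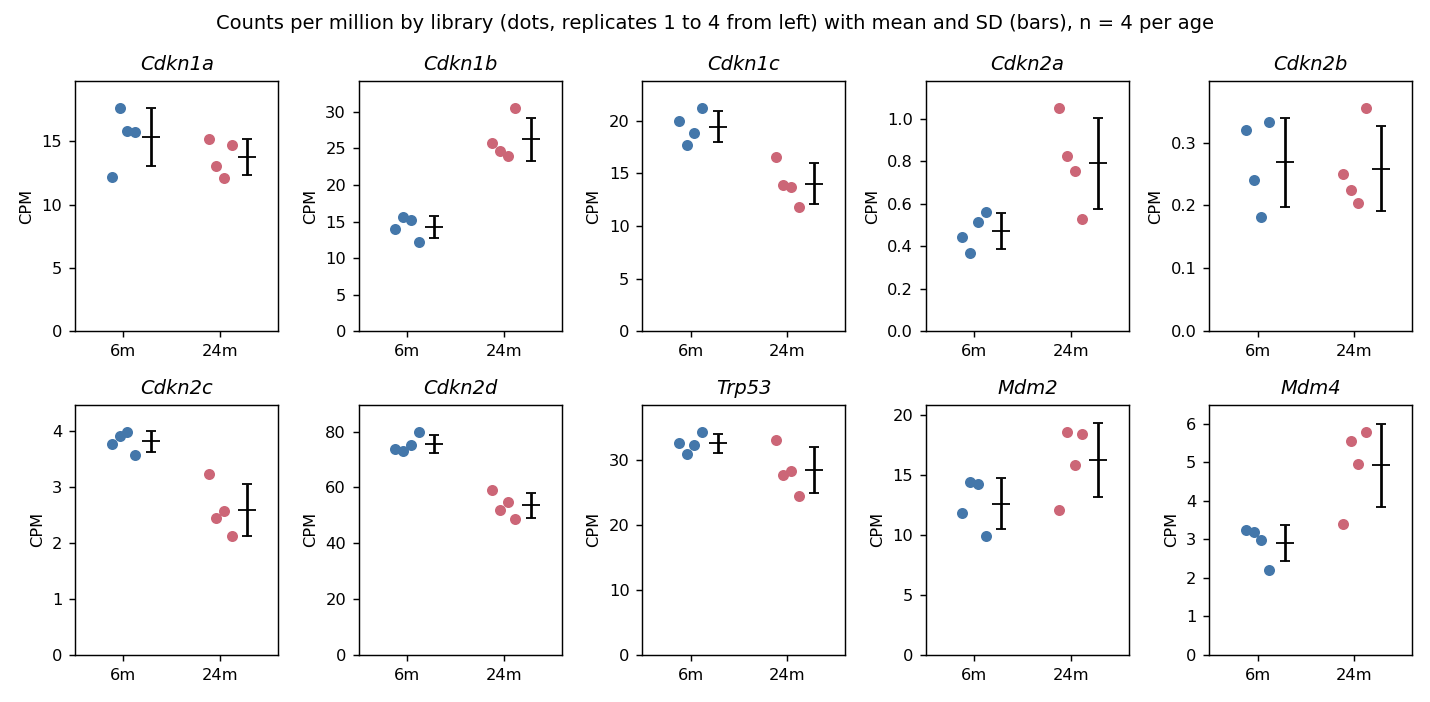
CPM (vertical axis, starting at 0) of each of the 10 genes in the 4 libraries of 6m (blue) and the 4 of 24m (red), with replicates 1 to 4 from left to right and the mean and SD as bars. Cdkn1b and Mdm4 lie higher in all 24m libraries, Cdkn1c, Cdkn2c and Cdkn2d lie lower in all of them, and the ages overlap for the other 5 genes.

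Among the CIP/KIP inhibitors the called gene was Cdkn1b (p27), a broad inhibitor of cyclin E and cyclin A complexes that holds cells in quiescence and is abundant in postmitotic neurons. It lies at chr6:134897364-134902476 (plus strand, ENSMUSG00000003031). Cdkn1b measured 14.0, 15.7, 15.2 and 12.2 CPM in 6m replicates 1 to 4 and 25.7, 24.7, 24.0 and 30.6 CPM in 24m replicates 1 to 4, scaled with the trimmed mean of M values (TMM). The ages did not overlap, with the highest value in 24m replicate 4 and the lowest in 6m replicate 4. The means were 14.3 ± 1.54 and 26.2 ± 2.96 CPM (SD, n = 4 each), a log2 change of 0.88 ± 0.12 (adjusted p = 0.000229, edgeR). Behind them stood 3753 counts in 6m and 9311 in 24m, so counting error was 3.26% and 2.07% of a library's value on average, well under the spread of the libraries. The call held in 19 of 20 alternatives. It missed the fold threshold, at 0.48 with an adjusted p of 0.00197, when a trend over canonical transcript length was removed.

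Cdkn1a (p21), which stops the cycle in response to p53 and is a common marker of senescent cells, was not called. It measured 12.2, 17.7, 15.8 and 15.7 CPM in 6m and 15.2, 13.0, 12.1 and 14.7 CPM in 24m. The ages overlapped, with the highest value in 6m replicate 2 and the lowest in 24m replicate 3, just under 6m replicate 1. The log2 change was -0.15 ± 0.13 (adjusted p = 0.327, edgeR), with a 95% interval of -0.45 to 0.14, whose upper bound lies below the change of Cdkn1b. The sign depended on the scaling, with 0.059 when libraries were scaled by their totals alone and 0.18 with the trend over canonical transcript length removed. Dino and Gm64878 overlap Cdkn1a on the other strand and are not in the table.

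Cdkn1c (p57), an imprinted inhibitor of growth expressed from the maternal copy (chr7:143012069-143014806, minus strand, ENSMUSG00000037664), had a lower level in 24m but missed the fold threshold. It measured 19.995, 17.7, 18.8 and 21.2 CPM in 6m and 16.5, 13.9, 13.7 and 11.8 CPM in 24m. Every 24m library lay below every 6m library, the nearest being 24m replicate 1. The log2 change was -0.47 ± 0.12 (adjusted p = 0.00624, edgeR). With the trend over exonic length removed it was -0.03. It was called lower in 1 of 20 alternatives, DESeq2 on quantile-normalized counts, at -0.66. The gene 4933417O13Rik overlaps it on the same strand and is not in the table.

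Of the INK4 inhibitors, Cdkn2a was called higher at a very low level. It had 29, 26, 31 and 37 counts in 6m replicates 1 to 4 and 109, 66, 63 and 46 counts in 24m. In CPM these were 0.442, 0.368, 0.514 and 0.560 in 6m and 1.05, 0.824, 0.756 and 0.527 in 24m. The ages overlapped by 1 library, since 24m replicate 4 fell below 6m replicate 4, and 24m replicate 1 stood at 1.99 times the lowest 24m value. The means were 0.471 ± 0.0842 and 0.790 ± 0.216 CPM (SD, n = 4 each), with a log2 change of 0.75 ± 0.25 (adjusted p = 0.0236, edgeR).

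Only 123 counts in 6m and 284 in 24m stood behind the value of Cdkn2a, and counting error alone was 18.0% of a 6m library's value and 11.9% of a 24m one, beside CVs of 17.9% and 27.3%. The call was lost without 6m replicate 1 (adjusted p = 0.0583, edgeR), without 6m replicate 2 (0.0648) and without 24m replicate 2 (0.053). With the replicate number as a block it was lost too (0.054, edgeR), though replicate numbers did not pair the samples. The direction was the same in all 19 alternatives in which the gene was tested, from 0.60 to 1.51, the higher values coming with a length trend removed, 1.41 for exonic and 1.51 for canonical transcript length.

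Cdkn2b (p15), the neighbour of Cdkn2a (chr4:89223204-89229276, minus strand, ENSMUSG00000073802), is induced by TGF-beta signalling in many cells. It had the lowest counts of the 10, 21, 17, 11 and 22 in 6m and 26, 18, 17 and 31 in 24m. In CPM it measured 0.320, 0.240, 0.182 and 0.333 in 6m against 0.251, 0.225, 0.204 and 0.355 in 24m, with the ages fully intermingled. The log2 change was -0.06 ± 0.28 (adjusted p = 0.871, edgeR), with a 95% interval of -0.68 to 0.57, so no difference was detectable at this depth. Its sign turned in 7 of 19 alternatives.

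Cdkn2c (p18) and Cdkn2d (p19INK4d) both inhibit CDK4 and CDK6, and Cdkn2d is known as an inhibitor that neurons keep after they leave the cell cycle. Cdkn2c (chr4:109517957-109524386, minus strand, ENSMUSG00000028551) measured 3.78, 3.92, 4.00 and 3.59 CPM in 6m and 3.23, 2.45, 2.57 and 2.13 CPM in 24m. The ages did not overlap, 24m replicate 1 being nearest to 6m. Its log2 change was -0.56 ± 0.15 (adjusted p = 0.0081, edgeR), just short of the threshold of 0.58, and it was called lower in 6 of 20 alternatives. Among them were the fit without 24m replicate 1, at -0.66 (adjusted p = 0.000742, edgeR), and the fit without 6m replicate 4, at -0.59.

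Cdkn2d (chr9:21199700-21202727, minus strand, ENSMUSG00000096472) was by far the most abundant of the 10. It measured 73.8, 73.0, 75.4 and 80.0 CPM in 6m and 59.0, 51.8, 54.8 and 48.5 CPM in 24m. Every 24m library lay below every 6m library. The log2 change was -0.50 ± 0.08 (adjusted p = 0.000769, edgeR), short of the threshold, with 19839 and 19065 counts behind it. With the trend over exonic length removed the value was 0.074, so its direction depended on that choice.

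Trp53 itself was not called. It lies at chr11:69469669-69482701 (plus strand, ENSMUSG00000059552) and measured 32.6, 30.9, 32.3 and 34.3 CPM in 6m and 33.0, 27.7, 28.3 and 24.5 CPM in 24m. The 24m libraries spread more widely than those of 6m and replicate 1 of 24m lay within the 6m range. The log2 change was -0.19 ± 0.10 (adjusted p = 0.119, edgeR). Without 24m replicate 1 the adjusted p was 0.0131 at -0.26, still under the fold threshold, and with library totals alone the change was 0.019. With the trend over exonic length removed it was -0.42 (adjusted p = 0.0122, edgeR), and with that over canonical transcript length removed it was 0.16 (0.0661). Wrap53, which overlaps Trp53 on the other strand, is in the table, and since the strand setting of the counting is not stated, reads of the pair may be shared.

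Mdm2, the ubiquitin ligase that is both a target of p53 and its main brake, was not called. It lies at chr10:117524780-117546730 (minus strand, ENSMUSG00000020184) and measured 11.9, 14.5, 14.3 and 9.94 CPM in 6m and 12.1, 18.6, 15.9 and 18.5 CPM in 24m. Replicates 2, 3 and 4 of 24m lay above all of 6m, and replicate 1 of 24m lay among the 6m values. The log2 change was 0.37 ± 0.17 (adjusted p = 0.0834, edgeR). Without 24m replicate 1 it was 0.50 (adjusted p = 0.00766), under the fold threshold, and with library totals alone it passed both, at 0.59. It was smaller with the trend over exonic length removed, at 0.10, with the GC trend removed, at 0.14, and on quantile-normalized counts, at 0.13.

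Mdm4 (chr1:132887222-132958299, minus strand, ENSMUSG00000054387), whose protein binds p53 without marking it for degradation, rose. It measured 3.23, 3.20, 2.99 and 2.21 CPM in 6m and 3.41, 5.55, 4.95 and 5.80 CPM in 24m. The ages did not overlap, but 24m replicate 1 lay only just above 6m replicate 1. The means were 2.91 ± 0.477 and 4.93 ± 1.08 CPM (SD, n = 4 each), a log2 change of 0.76 ± 0.19 (adjusted p = 0.00701, edgeR). Without 24m replicate 1 the change was 0.92. The call was lost with the trend over exonic length removed, at 0.13 (adjusted p = 0.383), and with the trend over canonical transcript length removed, at 0.062 (0.7). It was also lost on the fold threshold with quantile-normalized counts (0.40) and with the GC trend removed (0.52).

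Ratios of genes within a library do not depend on how libraries are scaled, and 3 were compared between ages by an exact two-sided permutation test over the 70 assignments of the 8 libraries, adjusted over the 3, with 0.5 counts added to each gene. The smallest p this test can give is 0.0286. None of the 3 passed after adjustment. The log2 ratio of Mdm4 to Mdm2 was -1.87, -2.17, -2.25 and -2.17 in 6m and -1.83, -1.75, -1.68 and -1.67 in 24m. Every 24m library had more Mdm4 relative to Mdm2 than every 6m library, though 24m replicate 1 and 6m replicate 1 lay close together. The difference was 0.39 (exact p = 0.0286, adjusted p = 0.0857, higher in 4 of 4 libraries), and it was 0.03 (exact p = 0.857) with the length trend removed.

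The log2 ratio of Mdm2 to Trp53 was -1.46, -1.09, -1.18 and -1.79 in 6m and -1.45, -0.57, -0.84 and -0.41 in 24m. The 3 libraries other than 24m replicate 1 lay above all 6m libraries. The difference was 0.56 (exact p = 0.114, adjusted p = 0.171), and without 24m replicate 1 it was 0.77 (exact p = 0.0286, adjusted p = 0.0857). The log2 ratio of Cdkn1a to Trp53 was -1.42, -0.81, -1.03 and -1.13 in 6m and -1.12, -1.09, -1.23 and -0.73 in 24m. These ranges overlapped almost wholly, with a difference of 0.05 (exact p = 0.771, adjusted p = 0.771).

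**Figure D2:**
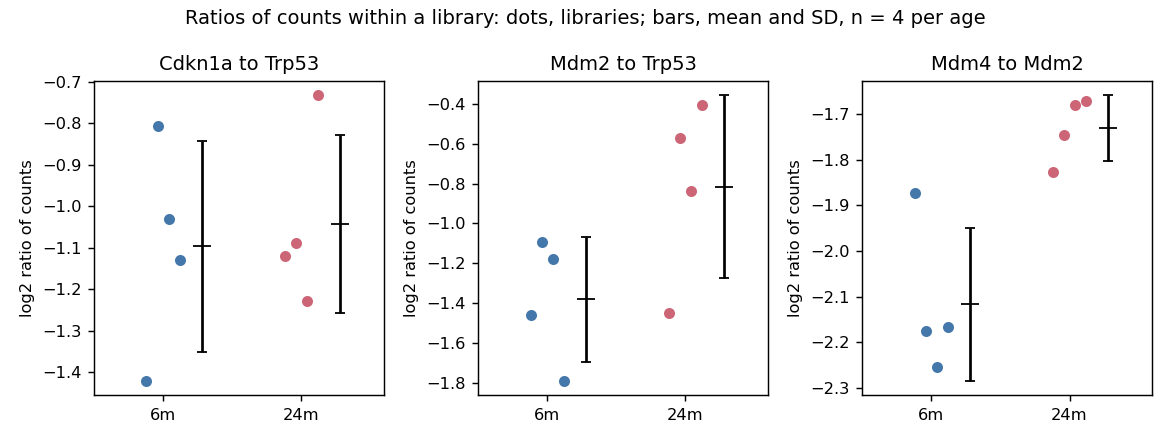
Log2 ratio of counts of 1 gene to another within each library (vertical axes, each on its own range), for 6m (blue) and 24m (red), with the mean and SD as bars. The ages are apart for Mdm4 to Mdm2, where 24m lies between -1.83 and -1.67 and 6m between -2.25 and -1.87, and they overlap for the other 2 ratios.

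The fold changes of the 10 genes moved with the treatment of gene length. Over all tested genes the median log2 fold change ran from -0.52 in the quintile of genes with the shortest exons (38 to 3028 exonic bases) through -0.14, 0.05 and 0.26 to 0.45 in the longest (9680 to 123193 bases). Cdkn2a (1172 bases), Cdkn2d (1662), Cdkn1c (2155) and Cdkn2b (2722) are in the shortest quintile, and Mdm4 (20386) is in the longest. The part of length in the differences between ages was not tested beyond the removal of its trend. After that removal, the genes called higher were Cdkn1b, at 0.90, and Cdkn2a, at 1.41, and Cdkn2c, at -0.70, was called lower. Scaling mattered too: with library totals alone the median of all genes was 0.21, and changes are to be read relative to that shift.

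**Figure D3:**
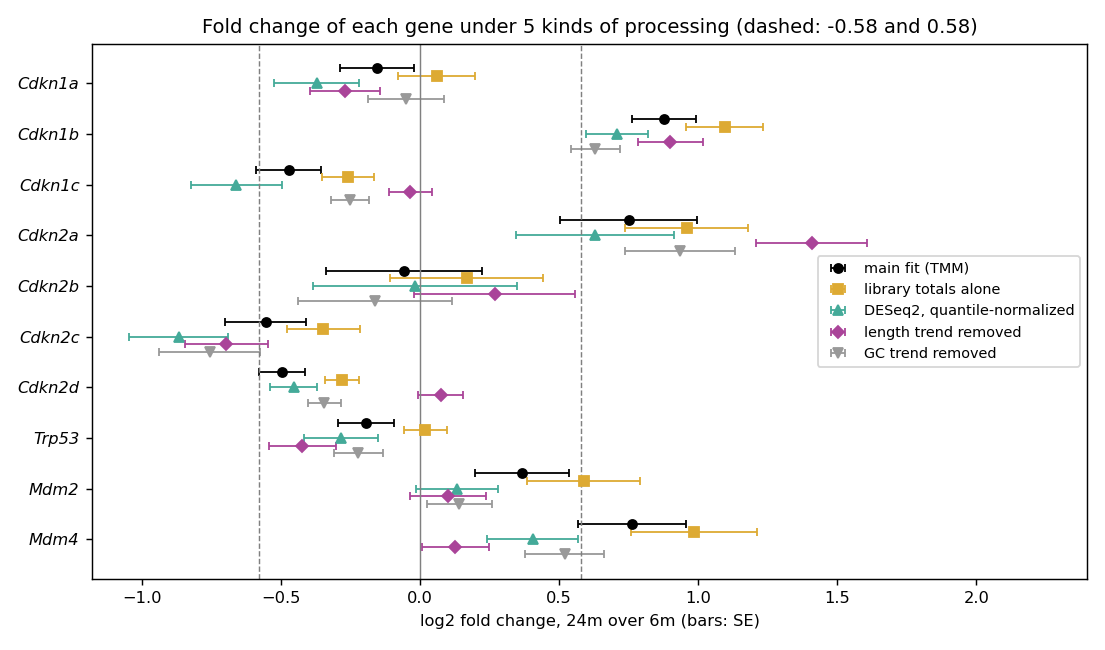
Log2 fold change of 24m over 6m (horizontal axis, bars are standard errors) of the 10 genes under 5 kinds of processing, with dashed lines at a size of 0.58 in either direction. Cdkn1b lies above 0.58 under all 5, while Mdm4 moves from 0.76 to 0.13 and Cdkn2d from -0.50 to 0.074 when the trend over exonic length is removed.

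Levels of different genes were compared per length, as CPM per kilobase of exon (RPKM), on TMM-scaled totals and the union of all exons. In 6m the order of mean levels was Cdkn2d (45.5 RPKM), Cdkn1c (9.02), Trp53 (4.41), Cdkn1b (3.14), Cdkn1a (2.54), Mdm2 (1.64), Cdkn2c (0.601), Cdkn2a (0.402), Mdm4 (0.143) and Cdkn2b (0.0988). Neighbours in this order whose libraries overlapped were Cdkn1b with Cdkn1a and Mdm4 with Cdkn2b. In 24m it was Cdkn2d (32.2), Cdkn1c (6.50), Cdkn1b (5.77), Trp53 (3.85), Cdkn1a (2.28), Mdm2 (2.11), Cdkn2a (0.674), Cdkn2c (0.408), Mdm4 (0.242) and Cdkn2b (0.0951). Overlapping neighbours there were Cdkn1c with Cdkn1b, Cdkn1a with Mdm2, and Cdkn2a with Cdkn2c. Cdkn1b thus passed Trp53, and Cdkn2a passed Cdkn2c, between the ages, the latter pair overlapping in 24m. The union of exons understates genes with many annotated transcripts, such as Mdm4 with 71 transcripts and a canonical one of 7105 bases. On canonical transcript length Trp53 came second at both ages, at 17.6 and 15.4 RPKM, above Cdkn1b in both, and Mdm4 measured 0.409 and 0.693 RPKM. Cdkn2c stayed above Cdkn2a on that length, at 0.963 and 0.927 RPKM in 24m with overlapping libraries, so neither change of order held there.

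**Figure D4:**
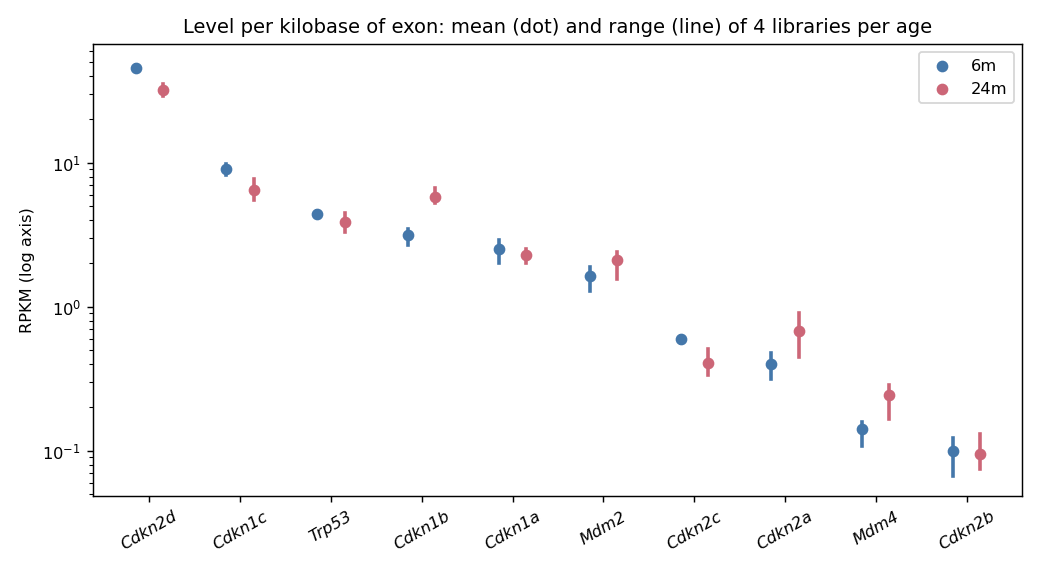
Level per kilobase of exon (RPKM, vertical log axis) of the 10 genes in 6m (blue) and 24m (red), dots being means and lines the range of 4 libraries. Cdkn2d stands highest at both ages and Cdkn2b lowest, and the order of Cdkn1b and Trp53 differs between ages.

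The genes most like Cdkn1b and Mdm4 across the libraries were found by the root mean square distance between centred log2 CPM profiles over the 8 libraries, among 13932 genes of at least 1 CPM. Nearest to Cdkn1b were Pitpnb (distance 0.049), a phosphatidylinositol transfer protein, Hp1bp3 (0.062), a chromatin protein, and Paip2b (0.069), a repressor of translation. Nearest to Mdm4 were Svil (0.069), Mllt3 (0.070) and Pld5 (0.072). Among the 8 genes described here with at least 1 CPM, the most alike were Cdkn1c and Cdkn2d, at 0.073. These distances describe the 8 libraries and carry no test.

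The partners of the inhibitors, 16 cyclins and CDKs, were all tested, and 1 was called higher and 6 lower, and the median log2 change was -0.22. Ccnd1 rose from 7.50 ± 0.981 to 14.7 ± 2.07 CPM (SD, n = 4), by 0.97 ± 0.14 (adjusted p = 0.000346, edgeR), while Ccnd2 fell from 22.8 ± 1.62 to 12.1 ± 0.760 CPM, a log2 change of -0.91 ± 0.09 (7e-05). Both are D-type cyclins, the partners of CDK4 and CDK6 that the INK4 proteins displace, and they moved in opposite directions. The others called lower were Cdk4, Cdk1, Ccnb2, Mnat1 and Cdk5, the last a kinase of neurons rather than of the cell cycle, from 236 ± 13.6 to 147 ± 34.7 CPM. Of all tested genes 25.3% were higher and 18.3% lower. With library totals alone 2 of the 16 were lower and the median was -0.01, and without 24m replicate 4 there were 3 lower.

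Of 13 genes of the RB and E2F family, 4 were called higher (Rb1, Rbl2, E2f3 and Tfdp2) and none lower, beside 25.3% and 18.3% of all tested genes, and their median log2 change was 0.56. E2f3, an activator of genes for DNA replication, rose from 1.502 ± 0.362 to 4.22 ± 1.23 CPM (SD, n = 4), by 1.49 ± 0.25 (adjusted p = 0.00077, edgeR). Rb1, the retinoblastoma protein itself, rose by 1.09 ± 0.28 (0.00725) with the ages overlapping. With the length trend removed 2 of the 13 were called higher and the median was 0.09, and without 24m replicate 4 it was 0.36. Of 17 tested proliferation genes none was called higher, beside 25.3% of all tested genes. The 3 lower ones, the mitotic genes Birc5, Plk1 and Cenpa, were 17.6%, near the 18.3% of all tested genes. The median was -0.08 and ran from -0.38 without 24m replicate 1 to -0.025 without 24m replicate 2. With library totals alone the median was 0.11 and 1 gene was called higher. Plk1 fell from 2.70 ± 0.191 to 1.39 ± 0.396 CPM, a log2 change of -0.95 ± 0.20 (0.00255), and Cenpa fell by 0.81 ± 0.21 (0.00747). Cenpa was not called with the trend over canonical transcript length removed, at -0.32 (adjusted p = 0.099, edgeR).

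The list of p53 targets was drawn up with earlier results of these data known, so its shares carry no test. Among 29 tested targets, Cdkn1a and Mdm2 included, 11 passed as higher (37.9%, beside 25.3% of all tested genes) and 2 as lower (6.90%, beside 18.3%). The median was 0.37. The higher ones were Pmaip1, Ccng1, Sesn1, Sesn2, Trp53inp1, Zmat3, Btg2, Tigar, Rrm2b, Apaf1 and Polk. Rrm2b, a ribonucleotide reductase subunit that supplies DNA repair, rose from 1.40 ± 0.257 to 4.46 ± 1.19 CPM (SD, n = 4), by 1.67 ± 0.24 (adjusted p = 0.000331, edgeR). Apaf1, of the apoptosome, rose by 1.56 ± 0.28 (0.00118). Bax, which opens the mitochondrial outer membrane in apoptosis, fell from 145 ± 8.84 to 72.8 ± 19.5 CPM, a log2 change of -0.996 ± 0.16 (0.000715), and Pidd1 fell by 0.72 ± 0.13 (0.00142). Leaving out any one of 24m replicate 1, 6m replicate 2 and 6m replicate 3 gave 4 lower. The count called higher ranged from 6, with the GC trend removed, to 14, with library totals alone. Of all 16730 tested genes, 3882 and 5449 were called higher in these 2 settings, so the background moved as well. The excess over all genes did not hold with the GC trend removed. Bax missed the fold threshold, at -0.50, with the length trend removed, and the median was 0.14 without 24m replicate 3 and 0.00 over the targets that reached 1 CPM in 4 libraries.

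Regulators and relatives of p53 numbered 20, of which 5 were called higher (Atm, Ppm1d, Ep300, Trp53bp2 and Trp73) and 2 lower (Rpl5 and Rpl11), with a median of -0.08 that was 0.13 with library totals alone and -0.45 with the length trend removed. The share called higher, 25%, was close to that of all tested genes (25.3%), and 10% were called lower, beside 18.3%. Atm, the kinase that signals DNA breaks to p53, rose from 1.62 ± 0.483 to 4.03 ± 1.30 CPM (SD, n = 4), by 1.31 ± 0.30 (adjusted p = 0.00397, edgeR). Ep300, which acetylates p53, rose by 1.52 ± 0.33 (0.00297). Rpl5 and Rpl11 are ribosomal proteins that can bind MDM2, and their log2 changes were -0.89 ± 0.12 (0.000224) and -1.03 ± 0.19 (0.00125). With the length trend removed 4 were called higher and 8 lower, beside 3568 and 2885 of all 16730 tested genes. Without 6m replicate 4 there were 4 lower, beside 2820 of all 16670 tested genes. The median ran from -0.14 without 24m replicate 4 to -0.015 without 6m replicate 3.

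The list of upstream regulators of the inhibitors was also drawn up with earlier results of these data known, so its shares carry no test. Of the 24 tested, 13 passed as higher (54.2%, beside 25.3% of all tested genes) and 2 as lower (8.33%, beside 18.3%). The median was 0.74. Foxo3, a transcription factor that activates Cdkn1b, rose from 4.33 ± 0.424 to 27.5 ± 9.54 CPM (SD, n = 4), by 2.67 ± 0.25 (adjusted p = 5e-05, edgeR). Smad3, which carries TGF-beta signals to Cdkn2b, rose by 1.95 ± 0.15 (2.4e-05). Of the Polycomb group, which silences Cdkn2a, Bmi1, Ezh1, Suz12, Cbx7 and Rnf2 were called higher, Eed, Cbx8 and Ring1 were not called, and Ezh2 fell from 7.80 ± 1.19 to 3.34 ± 0.793 CPM, a log2 change of -1.22 ± 0.19 (0.000526). Kdm6b, a demethylase that opposes Polycomb, and Ets1 and Ets2, activators of Cdkn2a, were called higher. Id1, an antagonist of that ETS activation, fell by 0.95 ± 0.15 (0.000597). Skp2 and Dtl, parts of ubiquitin ligases that act on p27 and p21, were called higher, and Kcnq1ot1, the RNA that silences Cdkn1c, was not analysed here. With the length trend removed 10 were higher and 3 lower, with a median of 0.43, and the median was 0.19 over the genes that reached 1 CPM in 4 libraries. Without 24m replicate 1, 4 were lower.

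Secreted and structural genes linked with senescence showed 10 higher and 3 lower of 26 tested, with a median of 0.37, and 6 higher without 6m replicate 1. Of the 10, Mmp3 and Mmp12 passed the filter on low counts through 24m libraries alone, the age in which they are high, so this count is not read against the share over all genes. Among the higher ones were the chemokines Cxcl10, Ccl2, Ccl3, Ccl4, Ccl5 and Ccl8, the proteases Mmp3 and Mmp12, and Igfbp5. Igfbp5 rose from 4.43 ± 0.855 to 23.7 ± 7.60 CPM (SD, n = 4), by 2.42 ± 0.26 (adjusted p = 8.1e-05, edgeR). Igfbp2, Gdf15 and Hmgb1 were called lower, Igfbp2 at -0.86 ± 0.21 (0.00506) and Hmgb1, a chromatin protein that senescent cells release, at -0.78 ± 0.12 (0.000425). Most of the higher genes are scarce in brain, and 2 of those left were called higher when genes had to reach 1 CPM in 4 libraries, with a median of -0.23. With the trend over exonic length removed 13 were higher and 1 lower, with a median of 0.66.

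**Figure D5:**
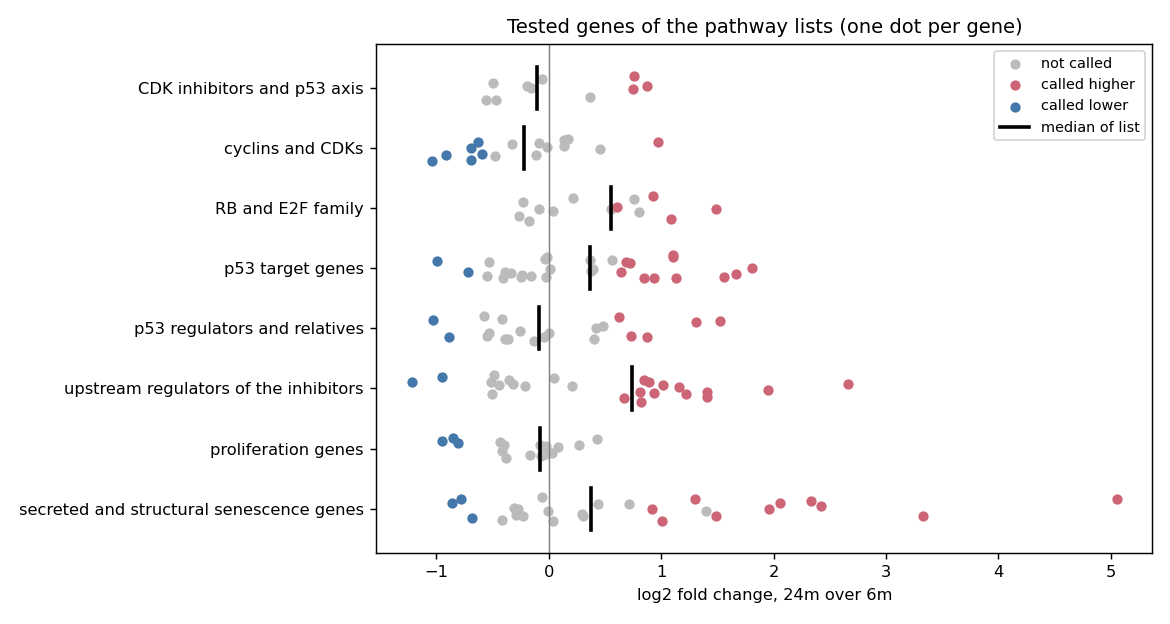
Log2 fold change of 24m over 6m (horizontal axis) of each tested gene in the 8 pathway lists, with genes called higher in red, genes called lower in blue and the median of each list as a bar. The median of the 10 genes described here lies at -0.11, and that of their upstream regulators lies at 0.74.

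Summed levels of cell type markers differed between the ages for several lists, and these values stand beside every result above. The 8 endothelial markers summed to 76.3 to 111 CPM in 6m and 45.8 to 70.7 CPM in 24m, and the 6 markers of oligodendrocyte precursors to 186 to 233 and 265 to 314 CPM. Blood markers, mostly haemoglobin, summed to 2911 to 4070 CPM in 6m and 664 to 2218 CPM in 24m. Those of choroid plexus and ependyma overlapped, at 1798 to 3225 and 826 to 2272 CPM, as did those of microglia, at 426 to 455 and 446 to 591 CPM. Sums of oligodendrocyte, astrocyte and pericyte or meningeal markers overlapped as well. By counts, to be read against 25.3% of all tested genes called higher and 18.3% lower, 5 of 8 astrocyte, 3 of 8 microglia, 3 of 6 precursor and 2 of 8 oligodendrocyte markers were called higher and none lower. Among neuron markers 3 of 8 were called higher and 1 lower, among endothelial markers 2 of 8 each way, among pericyte and meningeal markers 1 of 8 each way, among choroid plexus and ependymal markers 1 of 8 higher and 2 lower, and among 5 tested blood and lymphoid markers 1 higher and 3 lower. The part of these values in the results for the 10 genes was not tested.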

How the data were processed

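Poly(A) RNA of 8 brain samples was sequenced from directional libraries. Per the labels and the study's methods, the authors trimmed reads (Trim Galore 0.4.11), aligned them to GRCm39 (HISAT2 2.1.0) and counted them per gene with featureCounts. The deposited values are whole-number counts per gene, not normalized and not pooled. Strand and multimapping settings are not given in the sources used here. Symbols, positions and lengths came from GENCODE vM39, which matched 22281 of 22430 genes.

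A gene was tested when 4 or more libraries held over 5 counts. Tests were run with edgeR 4.0.16 in R 4.3.3 (glmQLFTest) on TMM-scaled libraries, with no covariate beside age. The thresholds of the study were used for calls (adjusted p up to 0.05, log2 change of 0.58 or more in size). CPM are counts per 1e+06 TMM-scaled counts. Counting errors cover counting only, and intervals of fold changes use the degrees of freedom of the edgeR fit. Replicate pairs differed by a chi-square of 8.18 to 417 per degree of freedom over 12 pairs, so none was a duplicate.

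The members and lists were chosen with earlier results of these data known. Named genes were all members, the called genes of at least 1 CPM at either end of the fold changes in each list (2 at each end; marker lists are given as counts and sums only), and the 3 most similar profiles for called members of at least 1 CPM. Other genes are listed by call only, and 1 gene of the lists is not reported by name here. Alternatives were library totals, RLE factors, DESeq2 1.42.0 with and without quantile normalization, limma-voom (limma 3.58.1), other filters, adjusted p alone, smoothed offsets for length or GC, the replicate number as a block and each library left out. Promoter windows came from RefSeq (GRCm38.p6).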

Additional observations from a re-analysis of the deposited data

How the results depend on the processing

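Of the 10 members, 3 were called higher, or 1 with the trend over canonical transcript length removed, an alternative chosen after seeing the data. With library totals alone 4 were. The count was 2 with DESeq2 on quantile-normalized counts, the replicate block, the GC trend removed, and the length trend removed (block or not). The filter of 1 CPM in 4 libraries, under which Cdkn2a was not tested, gave 2 as well. Dropping single libraries gave 2 or 3, the smaller count coming when the library dropped was 24m replicate 2, or replicate 1 or 2 of 6m. In the main fit no member was called lower. That count was 3 by adjusted p alone and 2 with DESeq2 on quantile-normalized counts. It was 1 with the length trend removed, 1 with the GC trend removed, and 1 with the replicate block and the length trend removed. Leaving out each library gave 0 to 1 lower, with 1 (Cdkn2c) without 6m replicate 4 or 24m replicate 1. The sign of Cdkn1a turned with library totals (0.059) and canonical length (0.18), as did that of Trp53 (0.019 and 0.16). The sign of Cdkn2b turned with library totals (0.17), the length trend removed (0.27), the block and length trend (0.26) and when libraries were left out (-0.24 to 0.060). The sign of Cdkn2d turned with the length trend removed (0.074, or 0.072 with the block). The difference between ages in the log2 ratio of Cdkn1a to Trp53 was -0.054 to 0.15 when libraries were left out. The causes were not tested.

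Over all genes, 4237 were called higher and 3058 lower, against 5449 and 1746 with library totals and 3573 and 3891 with DESeq2 on quantile-normalized counts. Of the 28 other named genes, 14 were called in every alternative and none changed sign. With the length trend removed, Bax (-0.50), Id1 (-0.40), Igfbp2 (-0.42), Hp1bp3 (0.34) and the genes most like Mdm4, Svil (0.29), Mllt3 (0.24) and Pld5 (0.22), were not called. Cdk5 (-0.48), Pidd1 (-0.50) and Hmgb1 (-0.56) were not called with library totals alone. Atm (0.52), Rpl11 (-0.48), Cenpa (-0.32) and Paip2b (0.51) were not called with the trend over canonical transcript length removed. Replicate numbers did not pair the samples: correlations of deviations were 0.38, 0.25, 0.18 and -0.52, and 1 of 4 matched its own number best. With the replicate block 2 members were called higher, Cdkn2a having an adjusted p of 0.054 (edgeR), and the difference in the ratio of Mdm4 to Mdm2, 0.39 by construction, had an exact p of 0.125, the smallest that 4 pairs can give. Depth limits Cdkn2a and Cdkn2b, whose counts were 11 to 109 per library.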
